A study of Mus musculus with 16 samples.

Results

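The early lineage priming regulators described here are 10 transcription factor genes, taken by gene symbol from the 27179 genes in the count table: Gata4, Gata6, Sox17, Foxa2, Eomes, Mixl1, Gsc, Sox1, Pax6 and Sox11. They were picked out of the table by name, not by a threshold on measured values, and the list of names was drawn up with earlier results of these data known. Their RNA was counted in 16 libraries of mouse embryonic stem cells (mESC), which are cells from the early embryo kept dividing in the undifferentiated, pluripotent state. Cells first grown with serum and the cytokine LIF were adapted over 3 passages to 1 of 2 maintenance media and used for at most 9 passages. The 2i/LIF medium was serum-free, with N-2 and B-27 supplements in DMEM/F-12 and Neurobasal. The serum/LIF+2i medium was knockout DMEM with 10% fetal bovine serum. Both held LIF and the inhibitor pair called 2i, which is 3 µM CHIR99021, a GSK3 inhibitor, and 1 µM PD0325901, a MEK inhibitor, and all cells grew on gelatin. The 0 h cells were taken in these media. The 12, 24 and 40 h cells had been washed and released into serum-free N-2 and B-27 medium lacking 2i and LIF, so the serum-grown cells lost serum at the same step. For serum-grown cells that medium was made from glutamine-free DMEM and Neurobasal with 2 mM glutamine added, so the basal medium of the released cells also differed between the arms. Each of the 8 groups of medium and time holds 2 libraries. The line, its strain and its genotype are not given in the sources used here.

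Removal of 2i and LIF lets mouse embryonic stem cells leave naive pluripotency, the state of the cells of the early inner cell mass, and in serum-free N-2 and B-27 medium their usual later course is toward neural precursors. The 10 genes mark the alternative courses. Sox1, Pax6 and Sox11 act in neural precursors, Eomes, Mixl1 and Gsc in the primitive streak from which mesoderm and definitive endoderm arise, and Gata4, Gata6, Sox17 and Foxa2 in endoderm, the first 3 of these also in the extraembryonic primitive endoderm. All encode DNA-binding transcription factors.

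Stretches directly upstream of the annotated start are shown for Sox1, Sox11 and Pax6, whose RNA was higher after release, and for Gsc, whose RNA was lower, so that the regulatory sequence of members with opposite courses can be read side by side. RefSeq promoter entries (build GRCm38.p6) matched 6 of the 10 members, with 9 start regions among them. Each line gives the 250 bases that end just before the start, on the gene's own strand, 5′ to 3′. Capitals mark 3 motifs searched on both strands, so that the reverse complement is in capitals too. The CCAAT box was searched for with its own letters. The TATA box was searched for as TATAAA in the same way. The third was the cAMP response element, whose palindromic form reads TGACGTCA.
Sox1: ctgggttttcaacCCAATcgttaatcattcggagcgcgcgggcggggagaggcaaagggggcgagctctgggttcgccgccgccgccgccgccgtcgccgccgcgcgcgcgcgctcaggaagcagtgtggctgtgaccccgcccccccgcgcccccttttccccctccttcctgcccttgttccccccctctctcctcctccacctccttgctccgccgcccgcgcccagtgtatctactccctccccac
Sox11: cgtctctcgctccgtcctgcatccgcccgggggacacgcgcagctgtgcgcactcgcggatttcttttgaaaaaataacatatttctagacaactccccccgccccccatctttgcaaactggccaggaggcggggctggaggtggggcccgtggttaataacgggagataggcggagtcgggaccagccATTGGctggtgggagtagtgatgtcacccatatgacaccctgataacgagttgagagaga
Pax6: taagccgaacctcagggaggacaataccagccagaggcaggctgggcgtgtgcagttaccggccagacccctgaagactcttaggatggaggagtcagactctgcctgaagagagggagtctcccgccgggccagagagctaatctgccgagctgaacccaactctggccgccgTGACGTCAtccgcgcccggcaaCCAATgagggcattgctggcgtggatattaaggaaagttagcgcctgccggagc
Gsc: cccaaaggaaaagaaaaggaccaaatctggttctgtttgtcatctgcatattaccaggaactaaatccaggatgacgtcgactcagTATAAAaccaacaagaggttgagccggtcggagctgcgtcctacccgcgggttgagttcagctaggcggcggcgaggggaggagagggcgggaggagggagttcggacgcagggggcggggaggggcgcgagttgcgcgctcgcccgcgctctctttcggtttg
The Sox1 stretch is chr8:12395269-12395518 on the plus strand and the Sox11 stretch is chr12:27342719-27342968 on the minus strand. The Pax6 stretch, upstream of the first of its 2 listed starts, is chr2:105668646-105668895 on the plus strand, and the Gsc stretch is chr12:104473237-104473486 on the minus strand.

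In these windows, searched on both strands, CCAAT lay in 5 of the members' 9 windows, 1 each in 5 of the 6 members with an entry, and in 33.8% of the 32851 RefSeq windows of the same length. It began 237 bases before the start in Sox1, 54 in Pax6 and 60 in Sox11, where it is on the other strand, and Gsc had none. The cyclic-AMP-response letters TGACGTCA stood 76 bases before the Pax6 start and in 1.55% of all windows. The TATA-like letters TATAAA stood 164 bases before the Gsc start and, on the other strand, 208 bases before a Foxa2 start, so in 2 of the 9 windows and in 12.4% of all windows. The GC box GGGCGG, not capitalised above, was in 5 of the 9 windows, of 4 members, and in 32.7% of all windows. The octamer ATGCAAAT (1.60% of all windows) and the TCF-type letters CTTTGAT (3.21% of all windows) were in none of the members' windows. CG pairs numbered 29 in the Sox1 window, 22 in Gsc, 17 in Sox11 and 15 in Pax6, against a median of 6 over all windows. The windows of the 3 members that rose and of the member that fell were all above that median. A match or its absence is a description of these letters alone.

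Total counts ran from 5931381 to 11142744 reads per library, and 3 reads, the limit that a count of 0 allows, corresponded to 0.259 to 0.517 CPM (reads relative to the size of the library, scaled between libraries by TMM). Intervals and this limit cover counting error only. Replicate libraries correlated across genes with r from 0.991 to 0.995, and every replicate pair differed by more than sampling noise (chi-square per degree of freedom from 1.39 to 5.42). Nothing in the labels says that the 2 libraries of a group came from separate cultures, so p-values measure the spread between these libraries, which may be technical. Defining markers of embryonic stem cells were present in all groups: their summed level was 4821 to 5371 CPM at 0 h and 2274 to 2436 CPM at 40 h. Esrrb and Nanog, of the naive pluripotency network, had log2 changes of -4.61 (SE 0.05) and -4.58 (SE 0.05) at 40 h from 2i/LIF. In bulk RNA, a smaller share of cells with a transcript and less of it per cell cannot be told apart.

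No member stayed at or under 3 counts in all 16 libraries. Sox17 and Foxa2 came closest, with highest counts of 5 and 6, and were at or under 3 counts in 12 and 13 libraries. Gsc was at or under 3 counts in 12 libraries, Gata6 in 9, Mixl1 in 6, Pax6 in 4 and Sox1 in 1. Gata4, Eomes and Sox11 were over 3 counts in every library. Whole groups at or under 3 counts numbered 6 of 8 for Foxa2 and for Gsc, 5 for Sox17, 3 for Gata6 and 2 each for Mixl1 and Pax6. The filter on low counts passed Gata4, Eomes, Gsc, Sox1, Pax6 and Sox11 and left out Gata6, Sox17, Foxa2 and Mixl1. Gsc passed through its 0 h libraries and Pax6 through its released libraries, so that the count of calls below is a description of these 6 genes and not evidence about the 10.

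By edgeR's quasi-likelihood test, with p-values adjusted by Benjamini and Hochberg over the 14288 genes tested and a call at an adjusted p under 0.05, the released cells were compared with 0 h cells of the same medium. At 12, 24 and 40 h from 2i/LIF the test called 6, 4 and 5 of the 6 tested members, where 44.7%, 58.8% and 68.8% of all genes tested were called. From serum/LIF+2i the members called also numbered 6, 4 and 5, where 51.2%, 64.4% and 70.5% of all genes were called. The 3 comparisons within a medium share their 0 h libraries. Sox1, Sox11 and Pax6 were higher and Gsc was lower at all 3 times in both media, Eomes was higher at 12 h and lower at 40 h, and Gata4 was lower at 12 h.

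**Figure D1:**
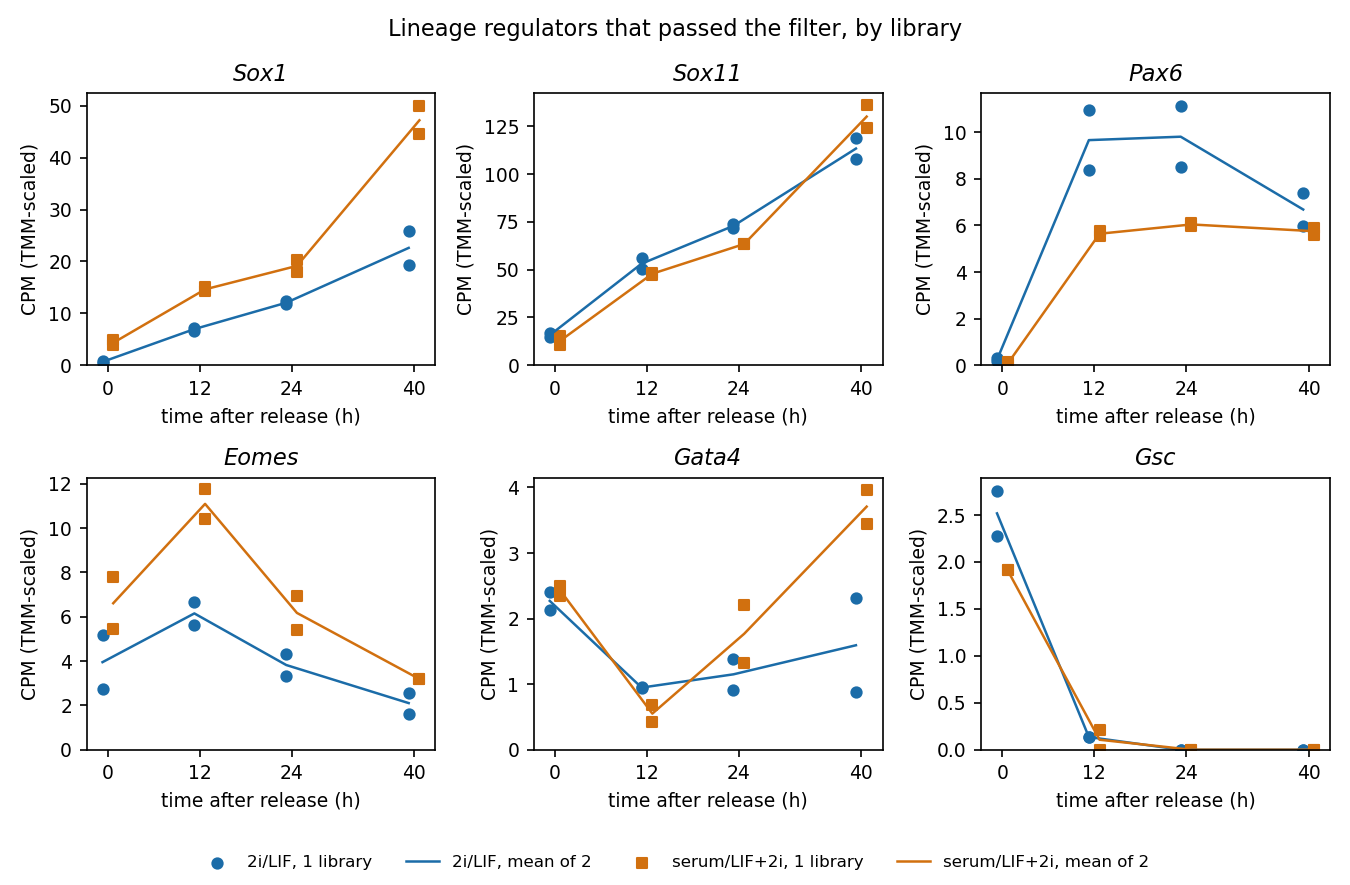
Level in CPM (TMM-scaled, linear axes from 0) of the 6 members that passed the filter against hours after release, each point 1 library and each line the mean of 2, in blue circles for 2i/LIF and orange squares for serum/LIF+2i. Sox1 and Sox11 climb to 40 h, Pax6 is above 0 h from 12 h on and lower at 40 than at 24 h from 2i/LIF, Eomes peaks at 12 h, Gata4 has its lowest mean at 12 h, and Gsc is at 0 CPM in all libraries of 24 and 40 h.

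Sox1 encodes a SOXB1 factor and is among the first genes that mark the neural plate. It lies at chr8:12395519-12399555 (GRCm38.p6, plus strand). In cells from 2i/LIF the 2 libraries held 0.862 and 0.456 CPM at 0 h, 7.26 and 6.68 at 12 h, 11.8 and 12.3 at 24 h, and 19.3 and 26.0 at 40 h. From serum/LIF+2i they held 3.82 and 4.85 CPM at 0 h, 15.002 and 14.3 at 12 h, 18.0 and 20.3 at 24 h, and 49.9 and 44.5 at 40 h. Within a medium no library overlapped one of another time, and each later group was above the earlier one. The log2 fold change over 0 h from 2i/LIF was 3.40 (SE 0.39, adjusted p = 3.71e-13) at 12 h, 4.19 (SE 0.35) at 24 h and 5.09 (SE 0.29, adjusted p = 2.59e-33) at 40 h. From serum/LIF+2i it was 1.75 (SE 0.20, adjusted p = 1.86e-13), 2.14 (SE 0.19) and 3.44 (SE 0.15, adjusted p = 3.62e-43). The rise continued between 24 and 40 h, by 0.90 (SE 0.14) from 2i/LIF and by 1.30 (SE 0.10) from serum/LIF+2i on the log2 scale.

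The Sox1 level was higher in the serum arm at every time. The log2 difference, serum/LIF+2i over 2i/LIF, was 2.72 (SE 0.45, adjusted p = 2.43e-07) at 0 h, 1.06 (SE 0.17, adjusted p = 2.48e-07) at 12 h, 0.67 (SE 0.14, adjusted p = 8.42e-05) at 24 h and 1.07 (SE 0.10, adjusted p = 1.34e-16) at 40 h. At 0 h this rested on 5 and 3 reads in 2i/LIF against 26 and 33 in serum/LIF+2i. The fold change over 0 h was correspondingly smaller in the serum arm, and the test of that difference gave -1.65 (SE 0.52, adjusted p = 0.0253) at 12 h, -2.05 (SE 0.49, adjusted p = 0.000754) at 24 h and -1.65 (SE 0.49, adjusted p = 0.00635) at 40 h. All 3 of these differences lost their call without the second 2i/LIF 0 h library, with adjusted p of 0.286, 0.0517 and 0.145. At 12 h the call was also lost without the first 2i/LIF 0 h library (adjusted p = 0.0544), the first 2i/LIF 12 h library (0.0635) or the second serum/LIF+2i 0 h library (0.102), and under DESeq2 (0.0900).

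Sox11, a SOXC factor of neural precursors and young neurons, had the highest level per length of the 10 genes at every time after release. It lies at chr12:27334268-27342718 on the minus strand. Cells from 2i/LIF held 16.9 and 14.6 CPM at 0 h, 50.4 and 55.9 at 12 h, 74.1 and 71.7 at 24 h, and 119 and 108 at 40 h. Cells from serum/LIF+2i held 10.7 and 15.1, 48.5 and 47.3, 63.6 and 63.3, and 136 and 124 CPM at the same times. Times within a medium did not overlap. The log2 fold change over 0 h rose through 1.76 (SE 0.11), 2.22 (SE 0.11) and 2.86 (SE 0.10, adjusted p = 2.60e-53) from 2i/LIF, and through 1.89 (SE 0.11), 2.29 (SE 0.11) and 3.33 (SE 0.09, adjusted p = 7.52e-62) from serum/LIF+2i.

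Between media Sox11 differed by little. It was lower in the serum arm at 24 h by a log2 difference of -0.20 (SE 0.07, adjusted p = 0.0230) and higher at 40 h by 0.20 (SE 0.06, adjusted p = 0.00451). At 0 and 12 h the difference was -0.28 (SE 0.16, adjusted p = 0.169; -0.55 and 0.0218 without the second serum/LIF+2i 0 h library) and -0.15 (SE 0.08, adjusted p = 0.151). The gain over 0 h at 40 h was larger in the serum arm by 0.48 (SE 0.17, adjusted p = 0.0222). DESeq2 called none of these 3 differences (adjusted p of 0.163, 0.118 and 0.0580). The 24 h call was lost whichever of its 4 libraries was left out (adjusted p from 0.0542 to 0.165) and with library size alone (0.0514). The difference at 40 h lost its call without the second 2i/LIF 40 h library (0.170) or the first serum/LIF+2i 40 h library (0.213). The larger gain lost its call without the first 2i/LIF 0 h (0.183), second 2i/LIF 40 h (0.0651), first serum/LIF+2i 0 h (0.364) or first serum/LIF+2i 40 h library (0.0703).

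Pax6 encodes a paired and homeodomain factor of the eye and forebrain. It lies at chr2:105668896-105698410 on the plus strand. It went from nearly no reads to at least 41 reads in a library within 12 h: cells from 2i/LIF held 1 and 2 reads at 0 h, 61 and 82 at 12 h, 80 and 56 at 24 h, and 59 and 44 at 40 h. Cells from serum/LIF+2i held 1 and 0 reads at 0 h, then 41 and 54, 54 and 60, and 65 and 61. In CPM the released libraries ran from 5.54 to 11.1. The summed-read ratio of 12 h over 0 h was 40.0 (95% exact counting interval 13.4 to 196) from 2i/LIF and 77.0 (13.5 to 3074) from serum/LIF+2i. At 40 h the ratio was 27.7 (9.22 to 137) and 78.2 (13.8 to 3113). The rise over 0 h was called at all 3 times in both media. Adjusted p ran from 4.76e-20 to 1.67e-15 from 2i/LIF and from 5.49e-17 to 1.16e-15 from serum/LIF+2i. Pax6 passed the filter only through the released libraries that these tests use, so the calls describe the counts and are no further support.

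From 12 to 24 h Pax6 had no called change, with a log2 difference of 0.03 (SE 0.19) from 2i/LIF and 0.10 (SE 0.22) from serum/LIF+2i. From 24 to 40 h it fell by 0.55 (SE 0.21, adjusted p = 0.0201) on the log2 scale in cells from 2i/LIF, and the difference was -0.07 (SE 0.20, adjusted p = 0.791) in cells from serum/LIF+2i. Pax6 was lower in the serum arm at 12 h by a log2 difference of -0.77 (SE 0.21, adjusted p = 0.00189) and at 24 h by -0.70 (SE 0.20, adjusted p = 0.00367), while at 40 h it was -0.22 (SE 0.21, adjusted p = 0.466). Sox1 was higher in the same serum libraries, so these 2 neural genes differed between the media in opposite directions at 12 and 24 h. The 24 to 40 h fall was lost without the first 2i/LIF 24 h library (0.324) or the second 2i/LIF 40 h library (0.174), and under DESeq2 (0.151). The difference at 12 h was lost without the second 2i/LIF 12 h library (0.112), and that at 24 h without the first 2i/LIF 24 h library (0.182) and under DESeq2 (0.0735).

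Levels between genes are compared as RPKM, which is CPM divided by the deposited gene length in kilobases. Sox2, Sox3 and Sox1 form the SOXB1 subgroup, and Sox4, Sox12 and Sox11 the SOXC subgroup. Sox2, which pluripotent and neural cells share, went from 146 ± 8.1 (SD, n = 2) RPKM at 0 h to 57.7 ± 0.20 at 40 h from 2i/LIF, a log2 fall of -1.34 (SE 0.05, adjusted p = 3.29e-41). Over the same time Sox1 went from 0.163 ± 0.071 to 5.60 ± 1.2 RPKM and Sox3 from 0.476 ± 0.15 to 14.2 ± 2.4 RPKM. Of the summed SOXB1 level, Sox1 was 0.111% at 0 h and 7.23% at 40 h from 2i/LIF, and 0.650% and 14.4% from serum/LIF+2i. Sox2 still held 74.5% and 72.3% of the SOXB1 level at 40 h.

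Sox1 and Sox3 differed between the arms in opposite directions at 40 h. Sox3 was lower in the serum arm by a log2 difference of -0.40 (SE 0.11, adjusted p = 0.0037), where Sox1 was higher. Among SOXC genes Sox12 led at every time, with 36.1 ± 1.3 RPKM at 40 h from 2i/LIF and 41.0 ± 1.0 from serum/LIF+2i, against 13.4 ± 0.94 and 15.4 ± 0.97 for Sox11. Sox4 rose by 3.54 (SE 0.13) and 4.04 (SE 0.15), and Sox12 by 1.70 (SE 0.07) and 1.97 (SE 0.06), on the log2 scale over 40 h from 2i/LIF and from serum/LIF+2i. Sox11 held 12.3% of the summed SOXC level at 0 h and 17.8% at 40 h from 2i/LIF, and 11.6% and 20.6% from serum/LIF+2i.

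**Figure D2:**
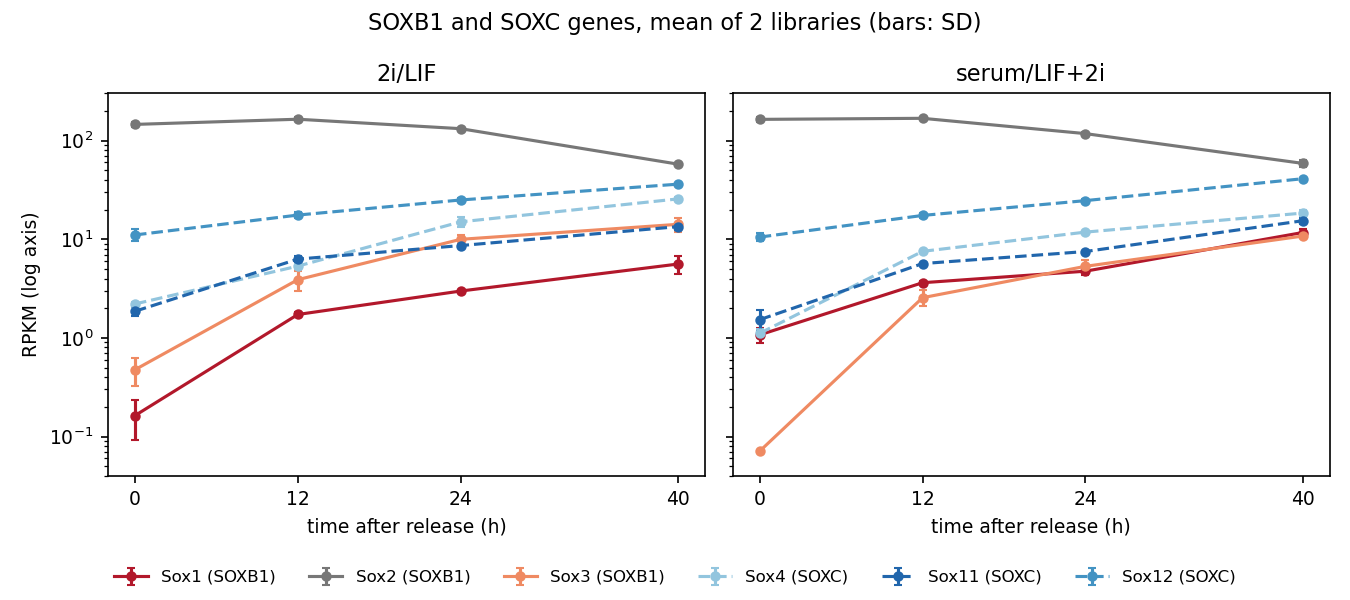
Level in RPKM (log axis) of the SOXB1 genes (solid lines) and SOXC genes (dashed lines) against hours after release, with 2i/LIF in the left panel and serum/LIF+2i in the right, points at the mean of 2 libraries and bars at the SD. Sox2 comes down to 57.7 and 58.7 RPKM at 40 h while the other 5 genes climb, and Sox1 ends at 5.60 and 11.7 RPKM.

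Eomes encodes a T-box factor of the primitive streak and definitive endoderm, and also of trophoblast. It lies at chr9:118478186-118486132 on the plus strand. Cells from 2i/LIF held 5.17 and 2.73 CPM at 0 h, 5.62 and 6.68 at 12 h, 4.30 and 3.34 at 24 h, and 1.63 and 2.58 at 40 h. Cells from serum/LIF+2i held 7.79 and 5.43, 11.8 and 10.4, 5.42 and 6.93, and 3.19 and 3.19 CPM. The 12 h libraries were the highest and the 40 h libraries the lowest of each arm. Over 0 h Eomes was higher at 12 h by 0.66 (SE 0.27, adjusted p = 0.0395) and 0.74 (SE 0.21, adjusted p = 0.00139) on the log2 scale, and lower at 40 h by -0.89 (SE 0.35, adjusted p = 0.0180) and -1.05 (SE 0.25, adjusted p = 0.000119), from 2i/LIF and serum/LIF+2i respectively. At 24 h it stood at -0.01 (SE 0.31) and -0.09 (SE 0.23) against 0 h. From 12 to 24 h it fell by 0.68 (SE 0.27) and 0.83 (SE 0.19), and from 24 to 40 h by 0.88 (SE 0.34) and 0.96 (SE 0.24).

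Eomes was higher in the serum arm at 0 h by a log2 difference of 0.77 (SE 0.27, adjusted p = 0.0221), at 12 h by 0.84 (SE 0.20, adjusted p = 0.000568) and at 24 h by 0.69 (SE 0.26, adjusted p = 0.0296). At 40 h the difference was 0.61 (SE 0.32, adjusted p = 0.156). Its course after release was not shown to differ between the arms: the difference in fold change was 0.07 (SE 0.35), -0.08 (SE 0.38) and -0.16 (SE 0.44) at 12, 24 and 40 h, with adjusted p from 0.839 to 0.945. From 2i/LIF, the 12 h rise lost its call without the second 0 h library (log2 0.25, adjusted p = 0.582) or the second 12 h library (0.54, adjusted p = 0.218), and the 40 h fall without the first 0 h library (-0.39, adjusted p = 0.461) or the first 40 h library (-0.59, adjusted p = 0.203). In the same arm the 12 to 24 h fall lost its call without the second 12 h library or either 24 h library (adjusted p from 0.0526 to 0.244), and the 24 to 40 h fall without the first 24 h (0.225) or first 40 h library (0.263). From serum/LIF+2i the 12 h rise lost its call without the second 0 h library (0.0792). The difference between media at 0 h was lost without the second 2i/LIF 0 h (0.470) or first serum/LIF+2i 0 h library (0.318), and at 24 h without either 2i/LIF 24 h library or the second serum/LIF+2i 24 h library (from 0.0506 to 0.275). DESeq2 called none of the 2 falls between consecutive times (0.144 and 0.0874), the 12 h rise (0.143) and the 40 h fall (0.0504) from 2i/LIF, or the differences between media at 0 h (0.113) and 24 h (0.141). Of the other trophectoderm markers, Cdx2 went from 11.1 CPM at 0 h to 0.580 at 40 h from 2i/LIF and from 7.93 to 0.592 from serum/LIF+2i. Krt7 fell by 1.93 (SE 0.41) on the log2 scale from 2i/LIF, with 0.84 (SE 0.55, not called) from serum/LIF+2i. Esx1 was not called in either arm, at -0.06 (SE 0.53) and -0.92 (SE 0.53). Elf5 never passed 2 reads in a library.

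Gsc encodes a homeodomain factor of the organizer region of the streak. It lies at chr12:104471209-104473236 on the minus strand. It had reads almost only in maintained cells: 16 and 15 reads for 2i/LIF at 0 h, 13 and 13 for serum/LIF+2i, then 1 and 1, and 0 and 2 reads at 12 h, and 0 reads in all 8 libraries of 24 and 40 h. The 0 h levels were 2.76 and 2.28 CPM in 2i/LIF and 1.91 and 1.91 CPM in serum/LIF+2i. At 12 h the summed-read ratio was 18.5-fold lower (95% counting interval 4.71 to 159) from 2i/LIF and 16.03-fold lower (4.01 to 139) from serum/LIF+2i. Against the limit of 3 reads per library, Gsc was at least 5.77-fold lower at 24 h and at least 6.43-fold lower at 40 h from 2i/LIF, and at least 5.99-fold and 6.96-fold lower from serum/LIF+2i. These bounds take the 0 h reads as exact and leave out their counting error. All 6 falls were called, with adjusted p from 2.01e-08 to 1.82e-05. Gsc passed the filter only through the 0 h libraries that these tests use, so the calls describe the counts and are no further support. At 0 h the media differed by a log2 value of -0.39 (SE 0.44, adjusted p = 0.544).

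Mixl1, a homeobox gene of the streak that acts in mesoderm and endoderm formation, lies at chr1:180693043-180697034 on the minus strand and did not pass the filter. It had 12 and 9 reads at 0 h in 2i/LIF, then 1 and 4, 0 and 2, and 4 and 4 reads at 12, 24 and 40 h. From serum/LIF+2i it had 6 and 5, 6 and 3, 0 and 3, and 7 and 10 reads. The 0 h libraries from 2i/LIF were above all released libraries of that arm, and the lowest counts of both arms were at 24 h. The summed-read ratio of 24 h to 0 h was 11.7-fold lower (95% counting interval 2.86 to 103) from 2i/LIF and 5.08-fold lower (1.34 to 28.3) from serum/LIF+2i. In the fit without a filter, over 21343 genes, edgeR called Mixl1 lower at 12, 24 and 40 h from 2i/LIF (log2 of -2.26, -3.40 and -1.67, adjusted p of 0.00740, 0.000400 and 0.0230) and lower at 24 h from serum/LIF+2i (-2.22, adjusted p = 0.0366). It also called the rise from 24 to 40 h in the serum arm, 2.17 (SE 0.85, adjusted p = 0.0329).

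Gata4 encodes a zinc-finger factor of primitive endoderm, gut and heart. It lies at chr14:63198914-63271712 on the minus strand. Cells from 2i/LIF held 2.41 and 2.13 CPM at 0 h, 0.959 and 0.936 at 12 h, 1.39 and 0.912 at 24 h, and 0.877 and 2.31 at 40 h. Cells from serum/LIF+2i held 2.35 and 2.50, 0.676 and 0.426, 2.21 and 1.32, and 3.45 and 3.97 CPM. The serum arm dipped at 12 h and had its highest libraries at 40 h, while the 2 libraries of 40 h from 2i/LIF, with 7 and 17 reads, lay far apart. Gata4 fell at 12 h by 1.24 (SE 0.49, adjusted p = 0.0313) from 2i/LIF and by 2.14 (SE 0.52, adjusted p = 0.000253) from serum/LIF+2i on the log2 scale. It then rose in the serum arm by 1.68 (SE 0.53, adjusted p = 0.00541) from 12 to 24 h and by 1.07 (SE 0.32, adjusted p = 0.00354) from 24 to 40 h.

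Against 0 h the 40 h level of Gata4 was not called in either arm, with a log2 difference of -0.53 (SE 0.44, adjusted p = 0.282) from 2i/LIF and 0.61 (SE 0.33, adjusted p = 0.0920) from serum/LIF+2i. The arms differed at 40 h by 1.23 (SE 0.35, adjusted p = 0.00446), higher in the serum arm, and the difference in fold change over 0 h was 1.13 (SE 0.55, adjusted p = 0.117). The call between arms was lost without the first 2i/LIF 40 h library (0.67, adjusted p = 0.285) and under DESeq2 (0.0945). Without the second one, the fall from 0 h in 2i/LIF became a call (-1.35, adjusted p = 0.0418), as did the difference in fold change (1.95, adjusted p = 0.0235). The 12 h fall from 2i/LIF lost its call without any 1 of its 4 libraries (adjusted p from 0.0751 to 0.125) and under DESeq2 (0.105). The 12 to 24 h rise in the serum arm was lost without the second 12 h library (0.101) or the first 24 h library (0.116), and the 24 to 40 h rise without the second 24 h library (0.128) and under DESeq2 (0.0738).

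Gata6, the zinc-finger factor that opens the primitive endoderm programme, lies at chr18:11052510-11085636 on the plus strand and did not pass the filter. From 2i/LIF it had 0 and 2, 1 and 3, 6 and 3, and 6 and 3 reads at 0, 12, 24 and 40 h, and from serum/LIF+2i 1 and 1, 1 and 6, 6 and 12, and 6 and 9 reads. The counts of 24 and 40 h were above those of 0 h in both arms. The summed-read ratio of 24 h over 0 h was 4.04 (95% counting interval 0.837 to 38.5) from 2i/LIF and 6.50 (1.56 to 57.8) from serum/LIF+2i. In the fit without a filter, the serum value was the 1 comparison of the 17 with a call for Gata6, at a log2 of 2.59 (SE 0.94, adjusted p = 0.0157).

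Sox17, a SOXF factor of endoderm, lies at chr1:4490928-4497426 on the minus strand. Its counts were 1 and 4, 3 and 1, 0 and 3, and 3 and 1 reads from 2i/LIF and 1 and 3, 0 and 1, 5 and 5, and 1 and 5 reads from serum/LIF+2i. Time groups overlapped in the 2i/LIF arm. In the serum arm the 24 h libraries were above those of 0 and 12 h. There the summed-read ratio of 24 h was 8.91 (95% counting interval 1.27 to 387) over 12 h and 1.81 (0.521 to 7.89) over 0 h. The fit without a filter called no Sox17 comparison. Foxa2, a forkhead factor that opens chromatin in endoderm and floor plate, lies at chr2:148042877-148046969 on the minus strand. Its counts were 0 and 0, 1 and 3, 1 and 1, and 4 and 4 reads from 2i/LIF and 1 and 0, 0 and 0, 0 and 2, and 6 and 2 reads from serum/LIF+2i. Both arms had their highest Foxa2 counts at 40 h. From 2i/LIF the 40 h mean was 1.07 times the level of 3 reads per library at 0 h. That value takes the 4 and 4 reads of 40 h as exact, so it is no lower bound. In the fit without a filter edgeR called the rise over 0 h (adjusted p = 0.0346). From serum/LIF+2i the summed-read ratio of 40 h over 0 h was 4.97 (95% counting interval 0.666 to 220).

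**Figure D3:**
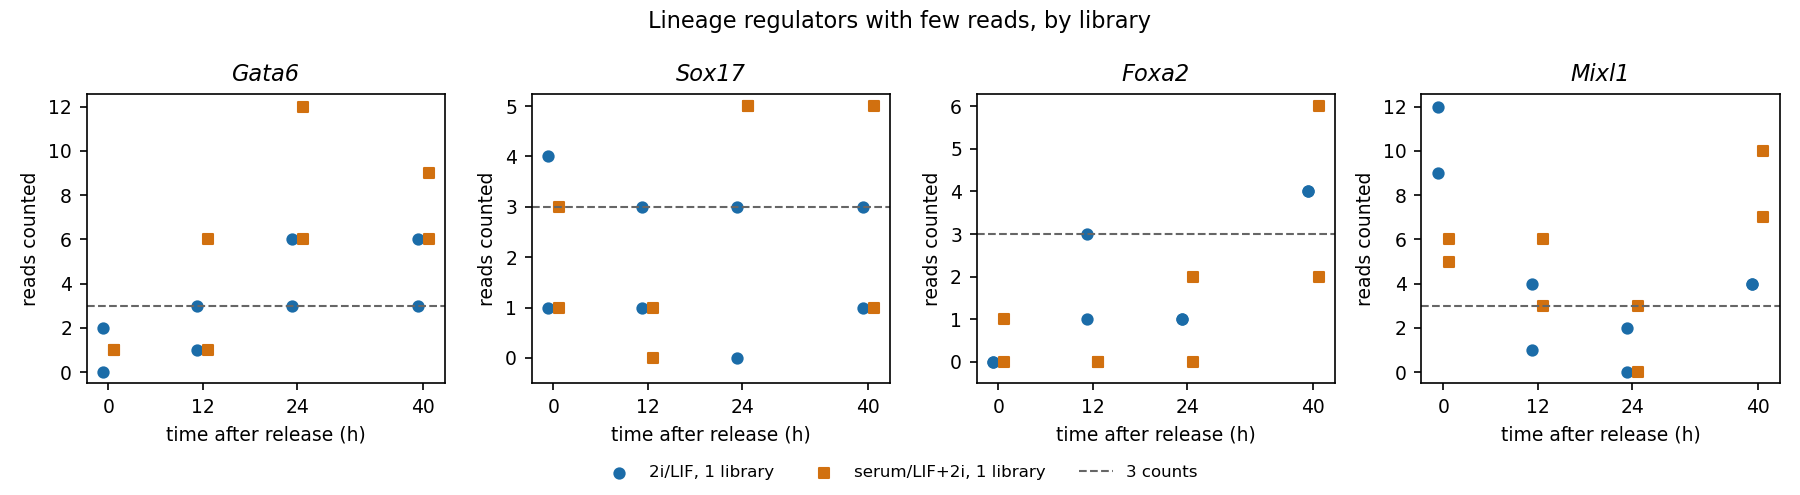
Reads counted per library (unscaled, linear axes) for the 4 members that did not pass the filter, against hours after release, each point 1 library, with a dashed line at 3 counts. Mixl1 is highest in the 2i/LIF libraries of 0 h, Gata6 has its 12-read maximum at 24 h in the serum arm, and Sox17 and Foxa2 do not pass 5 and 6 reads.

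Between the media at matched times of 0, 12, 24 and 40 h, the test called 2, 3, 4 and 3 of the 6 tested members, where 33.0%, 30.3%, 31.1% and 27.3% of all genes tested were called. Differences in fold change over 0 h between the arms were called for 1, 1 and 2 members at 12, 24 and 40 h, where 9.20%, 20.8% and 27.6% of all genes were called. Between consecutive times from 2i/LIF, 3 members were called from 12 to 24 h and 4 from 24 to 40 h (35.1% and 46.7% of all genes), and from serum/LIF+2i 4 and 4 (48.4% and 50.5%). Sox1 and Eomes were the 2 members higher in the serum arm at 0 h, 12 h and 24 h alike. Maintenance medium, serum and the basal medium after release differ together between the arms and cannot be told apart.

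**Figure D4:**
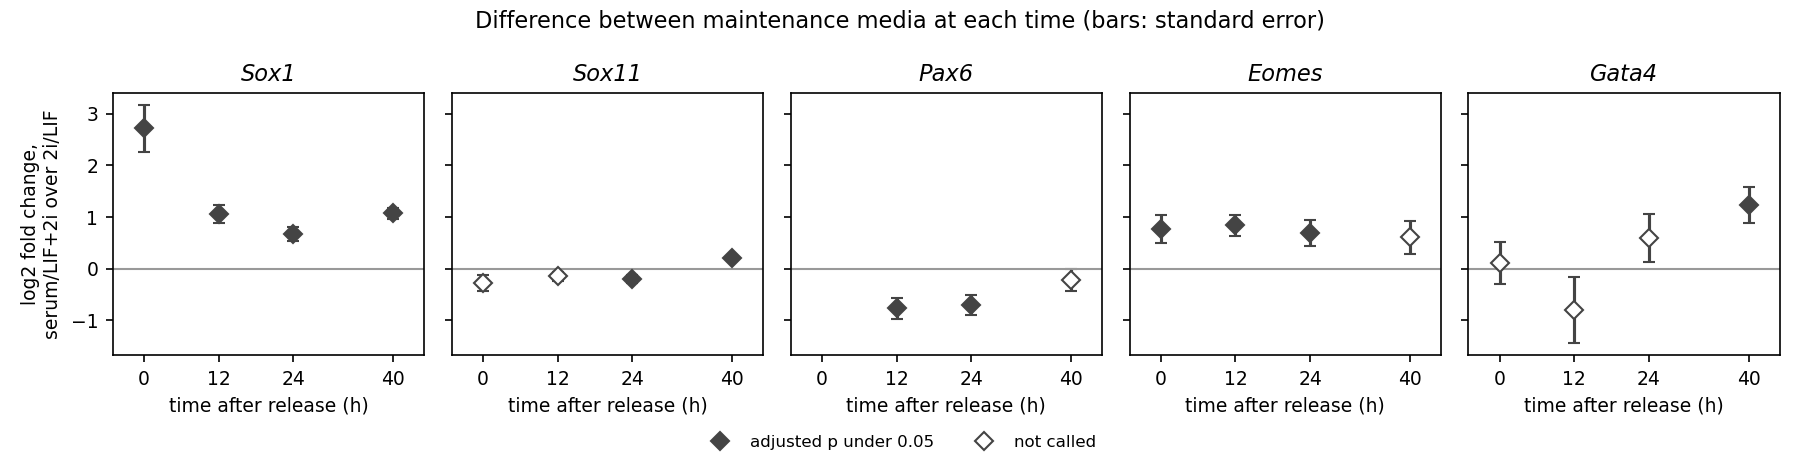
Log2 fold change of serum/LIF+2i over 2i/LIF at each time after release for 5 members, with bars at the standard error, filled points called at an adjusted p under 0.05 and open points not called. Sox1 is above 0 at all times and 2.72 at 0 h, Eomes is above 0 with calls to 24 h, Pax6 is below 0 at 12 and 24 h, and Sox11 stays within 0.28 of 0; Pax6 at 0 h, with at most 2 reads per library, is not drawn.

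By level per length, Gsc led the 10 genes at 0 h in 2i/LIF with 2.14 RPKM, followed by Sox11 with 1.86 and Eomes with 1.06. In serum/LIF+2i at 0 h Eomes had 1.78 RPKM, Gsc 1.63, Sox11 1.53 and Sox1 1.07. After 40 h Sox11 led with 13.4 and 15.4 RPKM, ahead of Sox1 with 5.60 and 11.7 and Pax6 with 1.82 and 1.56, from 2i/LIF and serum/LIF+2i. The endoderm and streak members were then at most 1.09 RPKM, which was Gata4 in the serum arm. Sox1, Sox11 and Pax6 held 30.3% of the 10 genes' summed RPKM at 0 h in 2i/LIF and 92.2% at 40 h, and 36.1% and 91.2% in the serum arm. Sox11 alone held 27.0% and 59.3% from 2i/LIF, and 21.0% and 49.0% in the serum arm. Pax6 held 8.03% and 4.97% at 40 h in the 2 arms.

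Further genes of the same lineages, in lists chosen with earlier results of these data known, moved in both directions at 40 h. Of all genes tested, 68.8% were called at 40 h from 2i/LIF and 70.5% from serum/LIF+2i. The counts of every list below are to be read beside these shares. Of 28 neural genes 18 were tested, and 10 were higher and 6 lower from 2i/LIF, with 9 and 6 from serum/LIF+2i. Their median log2 change was 0.55 and 0.52, against 0.01 and 0.00 over all genes tested. Sox3 rose by 4.90 (SE 0.26) from 2i/LIF and from 0.147 to 22.2 CPM, with 1 read in each 0 h library, from serum/LIF+2i. Zic5, a zinc-finger gene of the neural plate, rose by 1.93 (SE 0.14) and 2.68 (SE 0.16), while Sox2 fell. Sox21, Hesx1 and Ncam1 were lower in both media too, with Sox21 at -2.77 (SE 0.26) and -2.73 (SE 0.28). Msi1 and Otx1 were lower from 2i/LIF, and Pou3f2 and Olig2 were lower from serum/LIF+2i. Of 25 streak and mesoderm genes 14 were tested, with 3 higher and 9 lower from 2i/LIF and 4 higher and 9 lower from serum/LIF+2i, at medians of -2.11 and -1.59. Fgf5, Zic2 and Mesp2 were higher in both media, and Wnt3 was higher from serum/LIF+2i. Zic2 rose by 1.96 (SE 0.12) and 2.92 (SE 0.14), and Fgf5 went from 0.0862 to 17.2 CPM and from 0 to 3.17 CPM. A place in this list does not make a gene specific to the streak or mesoderm. Among the genes lower in both media, the T-box gene Tbx3 had log2 changes of -7.03 (SE 0.13) and -5.69 (SE 0.09). It held 190 and 249 CPM at 0 h in 2i/LIF and serum/LIF+2i. The log2 changes of the Nodal inhibitor Lefty2 were -2.09 (SE 0.10) and -1.58 (SE 0.09). The caudal homeobox gene Cdx1 held 180 ± 3.87 CPM at 0 h in 2i/LIF and 0.131 ± 0.00752 CPM at 40 h (SD, n = 2), which is under the level of 3 reads, and from serum/LIF+2i its log2 change was -5.51 (SE 0.18).

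Of 17 primitive endoderm genes 12 were tested, with 6 higher and 6 lower from 2i/LIF and 5 and 5 from serum/LIF+2i, at medians of -0.11 and 0.49. Basement membrane genes were among both: Lamb1 rose by 1.14 (SE 0.08) and 1.31 (SE 0.07), Lama1 fell by 5.27 (SE 0.12) and 5.40 (SE 0.11), and Sparc fell by 2.30 (SE 0.05) and 2.31 (SE 0.05). Ttr, a visceral endoderm product, had 0 reads everywhere and Afp at most 2 reads in a library. The summed level of this list was 492 to 525 CPM at 0 h and 197 to 217 CPM at 40 h. Most of it came from few genes. At 0 h in 2i/LIF and serum/LIF+2i, Sparc held 289 and 271 CPM and Lama1 162 and 165 CPM. At 40 h Lamb1 held 99.8 and 104 CPM and Sparc 58.8 and 54.6 CPM. Of 13 definitive endoderm genes 9 were tested, with 2 higher and 5 lower from 2i/LIF and 2 and 4 from serum/LIF+2i, at medians of -1.52 and -0.84. The epithelial genes Epcam and Cldn6 rose, by 1.52 (SE 0.05) and 1.89 (SE 0.14) from 2i/LIF and 1.95 (SE 0.05) and 0.89 (SE 0.12) from serum/LIF+2i, and Trh, which encodes thyrotropin-releasing hormone, fell by 2.23 (SE 0.07) and 2.46 (SE 0.10).

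Of 18 paralogues of the members 10 were tested, with 5 higher and 2 lower from 2i/LIF and 5 and 3 from serum/LIF+2i, at medians of 1.47 and 1.22. Otx2, an epiblast and forebrain homeobox gene related to Gsc, went from 0.552 CPM at 0 h to 81.4 at 24 h and 62.4 at 40 h from 2i/LIF, and from 1.91 to 92.7 and 10.3 from serum/LIF+2i. It was lower in the serum arm at 40 h by a log2 difference of -2.59 (SE 0.10, adjusted p = 6.93e-46). Of the 8 embryonic stem cell markers, all tested, 2 were higher and 5 lower from 2i/LIF and 1 and 6 from serum/LIF+2i, at medians of -1.24 and -1.33. Zfp42, a naive-state marker also called Rex1, fell by 2.82 (SE 0.05) and 3.31 (SE 0.05).

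Markers of other cell types moved beside the members, and their part in the members' values was not tested. Genes of 2-cell-like cells, the rare cells in such cultures that resemble the 2-cell embryo, were 8 and all tested, with 6 higher from 2i/LIF and 8 from serum/LIF+2i, at medians of 1.57 and 3.94. Their summed level went from 4.25 to 7.93 CPM at 0 h to 18.0 to 28.0 CPM at 40 h from 2i/LIF, and from 1.17 to 1.62 CPM to 44.8 to 46.4 CPM from serum/LIF+2i. From 2i/LIF, Zscan4d rose by 2.81 (SE 0.30) and Tmem92 by 1.48 (SE 0.57). Both were under the level of 3 reads at 0 h in serum/LIF+2i, and in that arm they went from 0.294 to 18.9 CPM and from 0.294 to 4.40 CPM. Zscan4c went from 1.74 to 4.24 CPM and from 0 to 9.19 CPM. Of 8 trophectoderm genes, Eomes among them, 6 were tested and 4 were lower in each arm, at medians of -1.44 and -2.38, with Tfap2c falling by 5.15 (SE 0.17) and 3.87 (SE 0.14) and Gata3 falling from 3.45 to 0.183 CPM from serum/LIF+2i, with -0.95 (SE 0.85, not called) from 2i/LIF. Of 8 fibroblast genes 5 were tested, with 2 higher and 1 lower from 2i/LIF and 3 higher and 1 lower from serum/LIF+2i, at medians of 0.75 and 1.38. Postn had 0 reads, Lum at most 2 and Col3a1 at most 4, while Dcn went from 0 CPM at 0 h to 11.2 and 4.74 CPM at 40 h, Thy1 rose by 3.13 (SE 0.46) and 1.18 (SE 0.39), and Pdgfrb fell by 3.36 (SE 0.30) and 1.09 (SE 0.28). Of 8 blood and endothelium genes 4 were tested, with 1 higher and 1 lower from 2i/LIF and 1 and 2 from serum/LIF+2i, at medians of -0.29 and -0.65. Pecam1 fell by 1.21 (SE 0.06) and 0.90 (SE 0.06), Tie1 rose from 0.248 to 1.44 CPM and from 0.0734 to 4.22 CPM, Runx1 fell from serum/LIF+2i by 2.04 (SE 0.65), with -0.99 (SE 0.73, not called) from 2i/LIF, and Cdh5 and Hba-x had 0 reads.

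Among the 14288 genes tested, the genes whose log2 CPM followed a member most closely over the 16 libraries are given as a description. The libraries share their times and media, so that any gene with the same course scores high. For Sox1 they were Chd5 (Pearson r = 0.981), 4932438A13Rik (0.975) and Rgs12 (0.975), for Sox11 Pcbp4 (0.987), Fam169a (0.986) and Plxnb1 (0.983), and for Pax6 Spata13 (0.983), Arid1a (0.978) and Cipc (0.978). For Gsc they were Srarp (0.986), S1pr1 (0.985) and Chm (0.984), for Eomes Eif2ak1 (0.948), Slc5a1 (0.924) and Nxf1 (0.922), and for Gata4 Slc30a4 (0.894), Tbl1x (0.894) and Pacs2 (0.890). The closest genes to Gata4 and Eomes were less alike to them than those of the other 4 members.

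Some members overlap other annotated genes, and whether the counting used strand is not given in the sources used here. The overlaps given here are between whole gene spans, and overlaps of exons were not computed. By span, the 4037 bases of Sox1 lie wholly inside the lncRNA gene Sox1ot, on the same strand. Whether reads there could belong to either gene was not tested. Sox1ot was counted at no more than 9 reads in a library. Pax6 overlaps the opposite-strand Pax6os1 over 1435 bases and Elp4 over 1091 bases. Pax6os1 had at most 1 read in a library, and Elp4, an Elongator subunit, had values of 0.06 (SE 0.11, adjusted p = 0.649) and 0.19 (SE 0.11, adjusted p = 0.123) on the log2 scale over 40 h in the 2 arms. Eomes overlaps Gm33408 over 547 bases and Gata6 overlaps Gata6os over 58 bases, and those 2 neighbours were not analysed here.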

How the data were processed

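The authors deposited 1 table of raw counts per gene, with a gene length in bases, for 16 poly(A)-selected stranded libraries (TruSeq Stranded mRNA, RNA by TRIzol, per the labels' protocols). The submitters' processing notes name fastp, STAR, featureCounts and mm10; versions and the strand setting are not given in the sources used here. Samples were grouped by their titles, which give a 12 h time that the protocol text does not name for serum-grown cells. All 16 columns were used (0 columns of values left out).

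Counts were filtered with filterByExpr (minimum count 10, minimum total 15), scaled by TMM and fitted in 1 edgeR 4.0.16 quasi-likelihood model with a term per group (8 residual degrees of freedom, R 4.3.3, limma 3.58.1). The 17 two-sided comparisons were adjusted by Benjamini and Hochberg over 14288 genes. SE is the log2 fold change over the square root of F. CPM and RPKM were computed from the counts, TMM factors and deposited lengths. Summed-read ratios carry 95% exact binomial intervals. Alternatives were DESeq2 1.42.0, other scalings, other filters, no ribosomal RNA genes, a replicate term and each library left out.

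The members and gene lists were chosen with earlier results of these data known. Named genes are the members, overlapping genes and up to 3 genes per list with the smallest adjusted p at 40 h. The 3 genes most correlated with each tested member are named too. Other list genes (Ttr, Afp, Elf5, Postn, Lum, Col3a1, Cdh5, Hba-x) were named for their absence. Fgf5, Zic2, Mesp2, Wnt3, Esx1 and Krt7 were named to show the other directions in their lists. Sox21, Hesx1, Ncam1, Msi1, Otx1, Pou3f2 and Olig2 were named as the other lower neural genes. Sequences and coordinates are from RefSeq GRCm38.p6, strands from GENCODE.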

Additional observations from a re-analysis of the deposited data

Results flagged for a closer look

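The gain of Sox1 over 0 h differed between the arms by the test of the difference itself, serum/LIF+2i minus 2i/LIF, with log2 values of -1.65, -2.05 and -1.65 at 12, 24 and 40 h. In both arms Sox1 rose, from 0.659 CPM at 0 h to 22.6 CPM at 40 h from 2i/LIF and from 4.33 to 47.2 CPM from serum/LIF+2i. The 2i/LIF 0 h libraries held 5 and 3 Sox1 reads, and without the second of them the differences were -1.24, -1.63 and -1.24. The gain of Sox11 over 0 h at 40 h differed by a log2 value of 0.48, which DESeq2 did not call (adjusted p = 0.0580). Its means at 0 and 40 h were 15.7 and 113 CPM from 2i/LIF and 12.9 and 130 CPM from serum/LIF+2i. Groups of 2 libraries are too small for a test of single libraries that lie apart.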

How the results depend on the processing

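Of 61 called member values, 40 kept their call under all alternatives that tested them. The other 21 lost it under at least 1, of which 16 did under DESeq2. A value that an alternative did not test was not counted as lost. With a filter at a mean of 5 CPM, Gata4 and Gsc were not tested, as all their group means were lower. Under DESeq2 the members called fell to 2 for 24 to 40 h from 2i/LIF, to 1 for the media at 0 h, at 24 h and at 40 h, and to 1 and 0 for the difference in gain at 40 h and 12 h, where 1 member had an unadjusted p under 0.05 and edgeR called 1. At a floor of 10 counts, 2 members stayed at or under it in all libraries. With library size alone the 40 h levels from serum/LIF+2i moved to 0.894 RPKM for Eomes and 1.63 RPKM for Pax6, and Eomes at 24 h from 2i/LIF reversed to 0.010; without ribosomal RNA genes it was 0.0047, against -0.01 (adjusted p = 0.974).

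With 1 library left out, members called after release ranged from 5 to 7 at 12 h, 4 to 5 at 24 h and 4 to 6 at 40 h from 2i/LIF, and from 5 to 6, 4 to 5 and 5 to 5 from serum/LIF+2i. Between consecutive times they ranged from 2 to 3 and 2 to 4 from 2i/LIF, and from 2 to 4 and 4 to 5 from serum/LIF+2i. Between media they ranged from 1 to 3 at 0 h, 2 to 3 at 12 h, 1 to 4 at 24 h (1 without the first 2i/LIF 24 h library) and 2 to 3 at 40 h. Differences in gain ranged from 0 to 1 at 12 h, 0 to 1 at 24 h and 1 to 2 at 40 h. In the 5 fits by edgeR that called 0 of these, 0 or 1 member had an unadjusted p under 0.05. A group left with 1 library was assumed to vary like the others. Leaving a library out also changed the filter, so that some of these fits tested 7 members. The share of all genes called was not computed for these fits or for DESeq2.

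Uncalled values changed sign with 1 library left out. Eomes at 24 h ranged from -0.43 to 0.48 from 2i/LIF and from -0.32 to 0.19 from serum/LIF+2i, and its difference in gain from -0.42 to 0.49, from -0.56 to 0.35 and from -0.66 to 0.25 at 12, 24 and 40 h. Gata4 from 2i/LIF ranged from -1.35 to 0.029 at 40 h, from -0.055 to 0.54 for 12 to 24 h and from -0.40 to 0.98 for 24 to 40 h. Pax6 for 12 to 24 h from 2i/LIF ranged from -0.19 to 0.23. The Sox11 difference in gain ranged from -0.10 to 0.40 at 12 h and from -0.15 to 0.36 at 24 h. The cause of these changes was not tested.

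Replicate numbers showed no difference shared between groups. Over 28 pairs of groups, the difference between replicates 1 and 2 correlated from -0.023 to 0.033 across genes. This cannot show whether libraries with the same number came from the same culture or batch. With the replicate block no member call was lost, and members called stayed at 6, 4 and 5 after release in each arm, 3, 4, 4 and 4 between consecutive times, 2, 3, 4 and 3 between media and 1, 1 and 2 for the difference in gain. Of 280 list counts under alternatives added after seeing the data, 259 stayed within 1.5 times. Depth limits Gata6, Sox17, Foxa2 and Mixl1, which had at most 12 reads in a library.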
